A study of Mus musculus with 16 samples.

Results

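The renin-angiotensin and mineralocorticoid genes described here were 8 genes taken by symbol from a kidney gene table of 57186 genes. They were the substrate gene Agt, the protease genes Ren1, Ace, Enpep and Mme, the receptor gene Agtr1a, the mineralocorticoid receptor gene Nr3c2 and the enzyme gene Hsd11b2. All 8 passed the filter of 100 summed counts, as did 25408 genes in all. The kidneys came from male mice that were homozygous for Elmo1H, an allele that raises the expression of Elmo1, an engulfment and cell motility gene, on a C57BL/6J background. Non-diabetic mice were Elmo1H/H Ins2+/+, and diabetic mice were Elmo1H/H with 1 Ins2Akita allele, a misfolding insulin variant that damages pancreatic beta cells. Untreated mice formed the groups ND_C and D_C. The groups ND_B12 and D_B12 drank vitamin B12 at 10 mg/kg per day from 8 weeks of age, which the labels give as 16 weeks of treatment and the methods as 8 weeks. Each group had 4 libraries, and kidneys were taken at 16 weeks of age between ZT7 and ZT9, hours counted from lights on. All groups carried Elmo1H/H, so no library here shows these genes at a normal Elmo1 dose, and female kidneys and other hours were not measured.

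Renin, secreted by juxtaglomerular cells of the afferent arteriole, cuts angiotensinogen into angiotensin I, and angiotensin converting enzyme (Ace) turns that peptide into angiotensin II. Angiotensin II acts through the type 1a receptor (Agtr1a) to constrict vessels, retain sodium and release aldosterone, while aminopeptidase A (Enpep) and neprilysin (Mme) cut angiotensin peptides further. Aldosterone binds the mineralocorticoid receptor (Nr3c2) in the distal nephron, where 11-beta-hydroxysteroid dehydrogenase 2 (Hsd11b2) inactivates glucocorticoids that would otherwise occupy it. The proximal tubule makes its own angiotensinogen and carries Ace, Enpep and Mme on its brush border.

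The libraries held between 65271308 and 91771136 counts. No pair of them looked like 1 library deposited again, with correlations of log2 CPM (counts scaled to library size) of 0.972 to 0.985 over 120 pairs. Markers of proximal tubule, thick limb, distal tubule, collecting duct, podocytes and endothelium were present in every library, as a kidney label requires. The labels of most libraries are in doubt, and for 2 of them the doubt reaches the diabetes label. When published group means of 178 genes were set against all 1820 sets of 4 libraries, the means closest to ND_B12 came from a set that held the library labelled D_C 1, and those closest to D_B12 from a set that held ND_B12 4. The means given for D_C came closest to the 4 libraries labelled D_B12, and ND_C 3 and ND_B12 1 each fell in the set of the other treatment. These matches were nearly exact. For D_C the median absolute log2 difference was 0.000208 in the best set, 0.0508 in the next best and 0.295 in the labelled libraries. For D_B12 the values were 0.000194, 0.05 and 0.299. Whether the labels or the published groups are in error cannot be told from this. In all, 11 of 16 libraries fell in another group than their label, of which 9 changed treatment but not diabetes. Every group and direction below is therefore that of the labels, and results are given with all 16 libraries and again without D_C 1 and ND_B12 4, called the 2 doubted libraries because their diabetes label is the one in question. The comparison of diabetic with non-diabetic kidneys averaged over both treatments does not depend on which diabetic libraries had received B12, whereas the direction of each B12 difference does. The comparisons of diabetes within each treatment and the interaction of diabetes and B12 depend on it too. Leaving out D_C 1 and ND_B12 4 does not remove that doubt.

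The gene positions are those of GENCODE vM39 on GRCm39. Ren1 lies at chr1:133278248-133288063 on the plus strand, Ace at chr11:105858469-105880790 (plus), Agtr1a at chr13:30518942-30566850 (plus) and Mme at chr3:63148889-63293451 (plus). Enpep lies at chr3:129062824-129126369 on the minus strand and Agt at chr8:125279301-125296716 (minus). Nr3c2 lies at chr8:77625576-77971863 (plus) and Hsd11b2 at chr8:106245369-106250620 (plus). Only Ren1 and Hsd11b2 overlapped no other annotated gene. Agt overlaps Cog2 and Capn9 at its ends on the opposite strand, and Ace, Mme, Enpep, Agtr1a and Nr3c2 overlap noncoding genes or a pseudogene. The counting is not stated to use strand, so reads in those overlaps could belong to either gene.

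Of the members, 4 had a match to TATAAA on either strand within 250 bases before a RefSeq start. TATAAA is the sequence of the TATA box, which positions RNA polymerase at focused promoters. Whether these matches act as a TATA box was not tested. The 30 bases around the match are shown for all 4 of these genes. Any link between a match and the differences described below was not tested. The stretches run 5′ to 3′ on the gene's strand, with the match in capitals, and TTTATA is TATAAA on the other strand.
Agt: ccaccccttgagTATAAAtaagcctgcttg
Ren1: atacatggtgtgTATAAAagaaggctcagg
Ace: tggtggctgggtTTTATAatccgcagggcg
Enpep: ctcaagccctgtTTTATAtttaactcgctc
These lie at chr8:125296458-125296487 (minus strand) for Agt, chr1:133278371-133278400 (plus) for Ren1, chr11:105858731-105858760 (plus) for Ace and chr3:129126433-129126462 (minus) for Enpep. The RefSeq table was built on GRCm38.p6, and each 250-base stretch had 1 match on its GRCm39 chromosome. The match begins 30 bases before the RefSeq start in Agt, 29 in Ren1, 31 in Ace and 52 in Enpep. GENCODE puts the outermost start of Agt, Ren1 and Ace further upstream by 271, 164 and 305 bases, so these windows fall inside those annotated genes. Of 32851 promoters of the same length, 12.4% held TATAAA on either strand. The corticosteroid receptor half-site AGAACA (16.1% of promoters) and the E-box CACGTG (6.02%) were not among the letters of any member's stretch. Mme and Nr3c2 held none of the 3 motifs, and neither did the stretch before another RefSeq start of Ace. Agtr1a and Hsd11b2 were not in the table.

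On a scale that allows genes to be compared (normalized counts per kb of annotated exon, mean ± SD over 16 libraries), the highest levels were those of Hsd11b2 (4107 ± 661) and Ace (3837 ± 1091), whose libraries overlapped. Enpep followed at 1625 ± 217, and its highest library, 2062, was below the lowest Ace library, 2495. Ren1 (1237 ± 469), made by a small number of cells, ran from 589 to 2426 and overlapped its neighbours Enpep and Mme (1172 ± 163). Agtr1a (639 ± 74.8) and Agt (508 ± 201) overlapped each other, and Nr3c2 was lowest at 229 ± 26.7, with its highest library (282) below the lowest Agt library (323). Part of this order depends on the length used. The exon length was that of GENCODE vM39, which holds more transcript models than were counted, such as 12 against 2 for Agt and 21 against 6 for Agtr1a. Per kb of the canonical transcript, a length tried after the data were seen, Enpep was 3025 ± 405 and overlapped Ace (4118 ± 1171), and Agtr1a was 1290.01 ± 151, level with Ren1 (1287 ± 488). Hsd11b2 and Ace remained highest and Agt (708 ± 281) and Nr3c2 (324 ± 37.8) lowest. These are levels per length and do not compare activity. The coefficient of variation over all libraries was 39.6% for Agt, 37.9% for Ren1 and 28.4% for Ace, and between 11.7% and 16.1% for the other members.

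**Figure D1:**
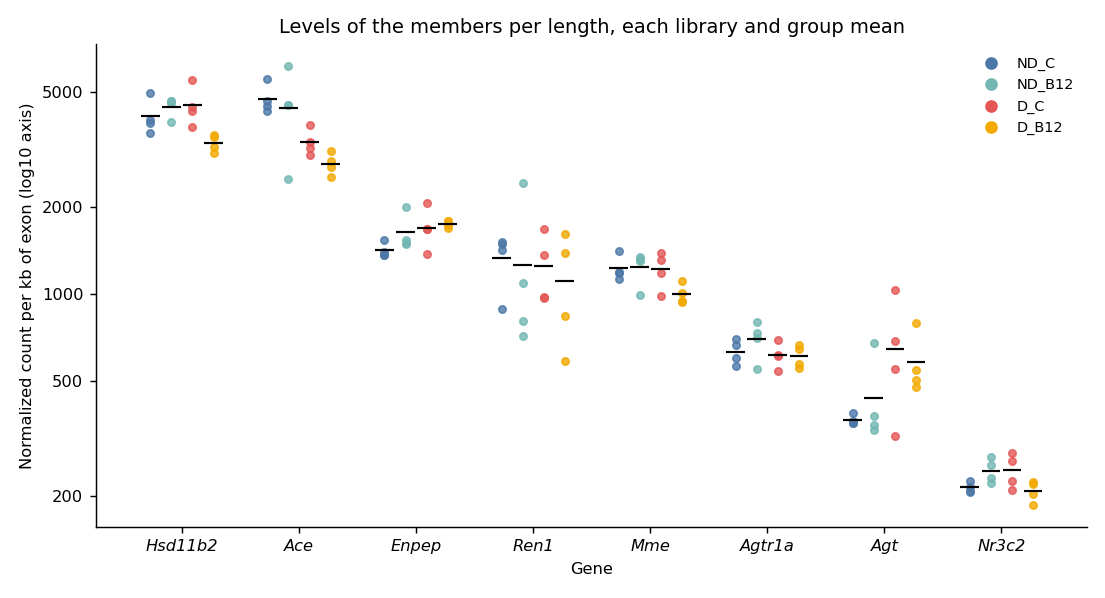
Normalized counts per kb of annotated exon (log10 axis) of each gene, with 1 point for each of 16 libraries coloured by labelled group and a black bar at each group mean. Hsd11b2 and Ace are highest and Nr3c2 is lowest, while the points of Agt and Ren1 spread most.

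The levels below are normalized counts, which are counts divided by a median-of-ratios size factor, and differences are log2 fold changes with standard errors (SE) from edgeR. Diabetic and non-diabetic kidneys of both treatments were compared first, to show what the Ins2Akita allele was accompanied by. Ace fell, and it was the single member of 8 to pass an adjusted p of 0.05, which 3.02% of all genes tested passed. Without D_C 1 and ND_B12 4, Ace and Mme fell and Agt and Enpep rose, 4 of 8 members beside 10.2% of genes. Over the 8 members the median log2 fold change was -0.13 with 16 libraries and -0.12 without the 2 libraries, beside 0.01 and 0.00 over all genes.

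**Figure D2:**
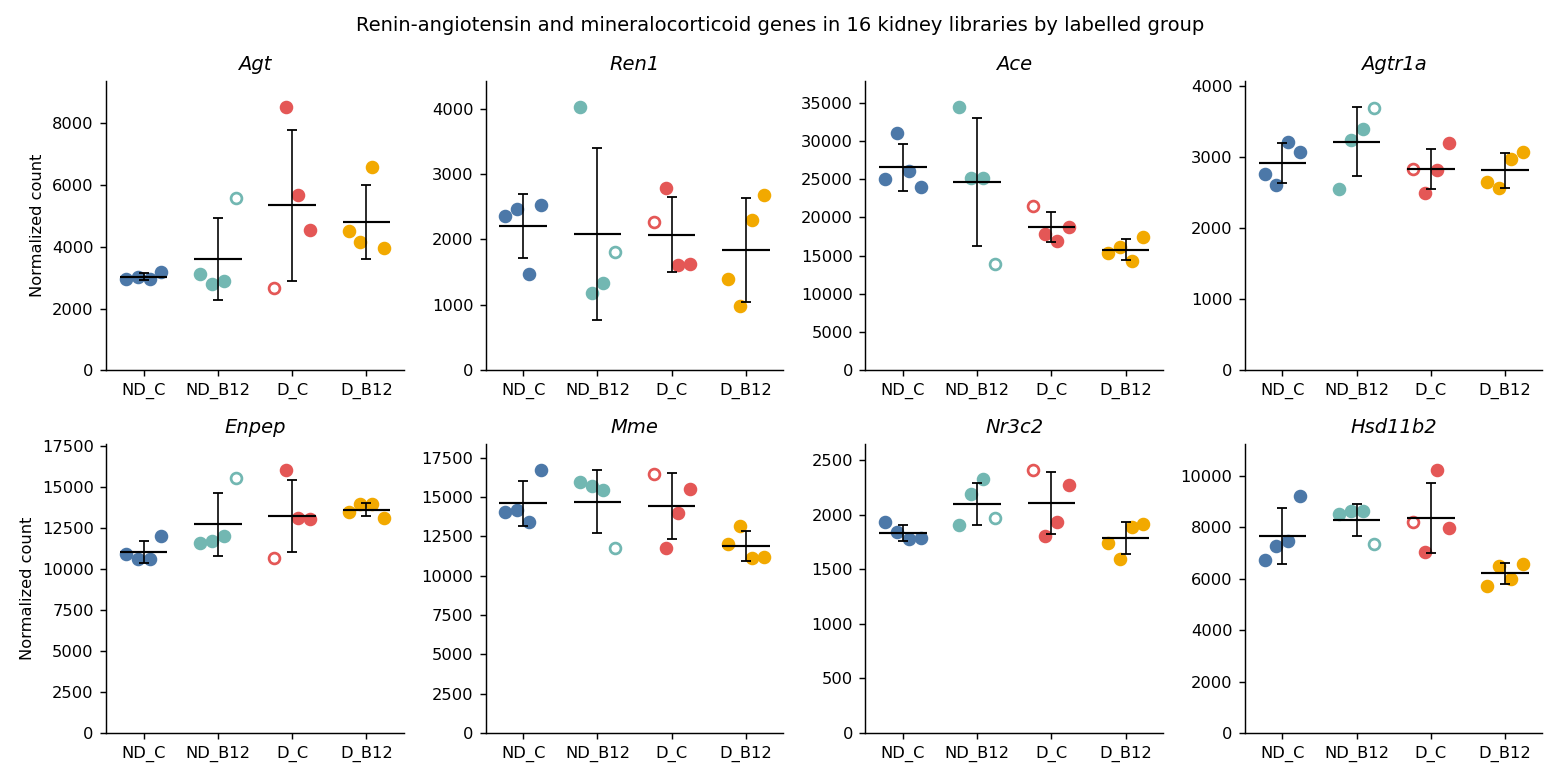
Normalized counts (axes from 0) of the 8 genes in each library by labelled group, with the group mean ± SD in black and open circles for D_C 1 and ND_B12 4. In Agt, Ace and Enpep the filled diabetic points lie apart from the filled non-diabetic points, whereas in Ren1 and Agtr1a they intermingle.

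Agt encodes angiotensinogen, the only precursor of the angiotensin peptides. Its normalized counts in ND_C libraries 1 to 4 were 2955, 3008, 2948 and 3194, and in ND_B12 they were 3129, 2788, 2907 and 5597. In D_C they were 2668, 8524, 5673 and 4543, and in D_B12 4528, 4170.1, 6584 and 3957. The diabetic libraries were higher than the non-diabetic ones except in the 2 doubted libraries, since D_C 1 was lowest of all 16 and ND_B12 4 was above 5 of the 8 diabetic libraries. With all libraries the diabetic mean was 5081 ± 1812 and the non-diabetic mean 3316 ± 930.3 (SD, n = 8 each), and the log2 difference of 0.62 (SE 0.20) missed the threshold (edgeR adjusted p = 0.101). Without D_C 1 and ND_B12 4 the groups did not overlap, with 3957 to 8524 in diabetic and 2788 to 3194 in non-diabetic libraries. The log2 fold change was then 0.88 (SE 0.13, edgeR adjusted p = 0.00133). In these 14 libraries, whose diabetes labels matched the published sets, Agt was 1.84-fold higher in diabetic kidneys. Leaving out D_C 1 alone gave an adjusted p of 0.0186 and leaving out ND_B12 4 alone 0.0273, by edgeR.

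Ren1 encodes renin, the protease that starts the cascade. Its counts were 2354, 2463, 1475 and 2519 in ND_C, and 4019.9, 1183, 1338 and 1805 in ND_B12. They were 2269, 2792, 1607 and 1623 in D_C, and 1390.3, 976, 2297 and 2683 in D_B12. Every group spread over more than its distance from the others, and the highest library of all 16 was 4.12 times the lowest. The log2 fold change in diabetes was -0.14 (SE 0.26, edgeR adjusted p = 0.823), and this SE was the widest of the 8 members. None of the 6 comparisons passed for Ren1 under any alternative.

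Ace encodes angiotensin converting enzyme, the protease that forms angiotensin II and degrades bradykinin. Its counts were 25061, 30992, 26112 and 24040.2 in ND_C, and 34418, 25149.5, 25145 and 13947 in ND_B12. In D_C they were 21457, 17898, 16932 and 18804, and in D_B12 15339, 16096, 14254 and 17505. All diabetic libraries were below all non-diabetic libraries except ND_B12 4, which had the lowest count of the 16. Diabetic kidneys held 17286 ± 2225 and non-diabetic kidneys 25608 ± 5929 (SD, n = 8 each), so Ace fell by 0.57 on the log2 scale (SE 0.13, edgeR adjusted p = 0.029) and was 1.49-fold lower. This call was lost, with adjusted p between 0.0541 and 0.0636, when any 1 of D_C 2, 3 or 4, D_B12 1 or 3, ND_B12 2 or 3 or ND_C 2 or 3 was left out, while the log2 fold change stayed between -0.67 and -0.47 in all 16 such fits. Without D_C 1 and ND_B12 4, the fall was 0.70 on the log2 scale, 1.63-fold lower (SE 0.08, edgeR adjusted p = 0.000175), and no diabetic library overlapped a non-diabetic one. In a bulk kidney, fewer cells of a type and less RNA per cell cannot be told apart.

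**Figure D3:**
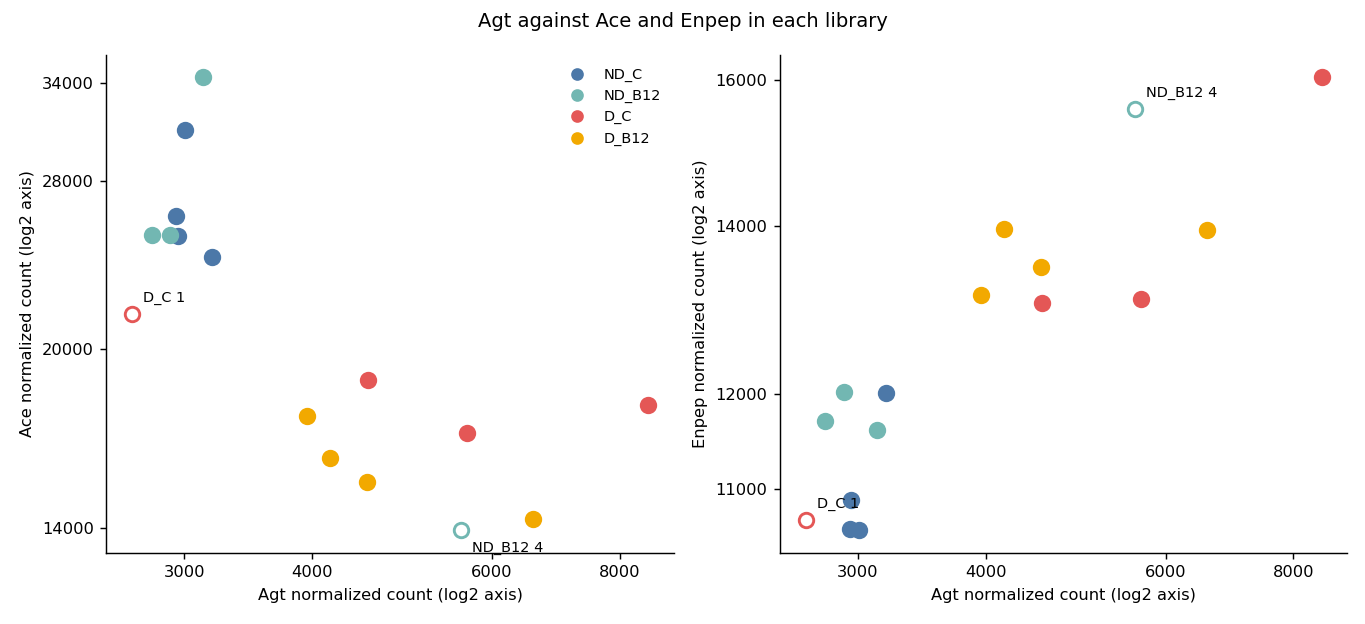
Normalized counts of Agt (x axis) against Ace (left) and Enpep (right), all on log2 axes, with 1 point for each library coloured by labelled group and open circles for D_C 1 and ND_B12 4. ND_B12 4 lies with the diabetic libraries at high Agt, high Enpep and low Ace, and D_C 1 lies at the lowest Agt.

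Enpep encodes aminopeptidase A, which removes the first residue of angiotensin II. Its counts were 10890.2, 10590.5, 10597 and 12007 in ND_C, and 11613, 11704, 12020.4 and 15578 in ND_B12. In D_C they were 10687, 16043, 13090.4 and 13042, and in D_B12 13486, 13962, 13939.6 and 13141. As with Agt, D_C 1 sat among the non-diabetic libraries and ND_B12 4 among the diabetic ones. The log2 fold change in diabetes was 0.18 (SE 0.08, edgeR adjusted p = 0.216) with all libraries and 0.28 (SE 0.05, edgeR adjusted p = 0.00351) without those 2. Diabetic libraries then ran from 13042 to 16043 and non-diabetic ones from 10590.5 to 12020.4 without overlap.

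Mme encodes neprilysin, which cuts angiotensin I, natriuretic peptides and other small peptides. Its counts were 14038, 14182, 13418 and 16709.8 in ND_C, and 15919, 15699, 15465 and 11733 in ND_B12. In D_C they were 16486, 11723, 13994 and 15528, and in D_B12 11987, 13162, 11132 and 11201. The 4 D_B12 libraries were below all non-diabetic libraries but ND_B12 4, whereas D_C ran from 11723 to 16486 and overlapped every other group. The log2 fold change in diabetes was -0.16 (SE 0.08, edgeR adjusted p = 0.272) and, without D_C 1 and ND_B12 4, -0.24 (SE 0.07, edgeR adjusted p = 0.0316), with libraries that still overlapped.

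Agt, Ace and Enpep were thus the 3 members of 8 whose 7 diabetic libraries did not overlap the 7 non-diabetic libraries, beside 2.72% of all genes. Where libraries do not overlap, a two-sided exact permutation test of the difference can only give the smallest p that 7 against 7 allows, 0.000583. That value restates the separation of these 3 genes and adds no support to it. The dates in the names of these 7 diabetic libraries were all later than those of the 7 non-diabetic ones. Date and diabetes therefore cannot be told apart in this comparison. With all 16 libraries no member was free of overlap, beside 0.386% of genes.

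**Figure D4:**
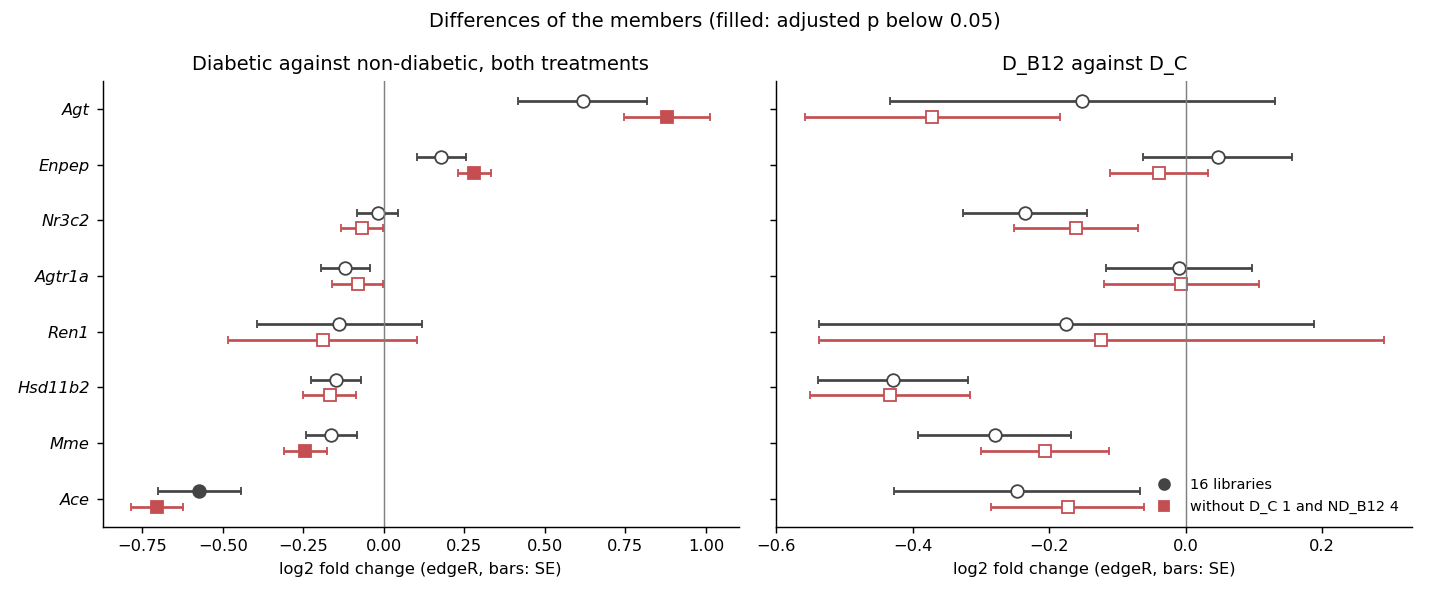
Log2 fold changes with SE bars of the 8 genes in diabetic against non-diabetic kidneys (left) and in D_B12 against D_C (right), with circles for 16 libraries, squares without D_C 1 and ND_B12 4, and filled symbols for edgeR adjusted p below 0.05. Ace is filled in both fits at left, Agt, Enpep and Mme are filled as squares at left, and no symbol is filled at right.

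Agtr1a encodes the main vascular and tubular receptor of angiotensin II in mice. Its group means ± SD (n = 4) were 2920.4 ± 278 (ND_C) and 3221 ± 484 (ND_B12) against 2838 ± 285 (D_C) and 2816 ± 249 (D_B12), and the libraries ran from 2501 to 3692 with overlap between every pair of groups. The log2 fold change in diabetes was -0.12 (SE 0.08, edgeR adjusted p = 0.417), and without the 2 doubted libraries -0.08 (SE 0.08, edgeR adjusted p = 0.589).

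Diabetes was examined next within each treatment of the labels, which are in doubt for most libraries. No member passed with all libraries, beside 1.66% of genes in untreated and 0.823% in B12-treated kidneys. Ace in D_C did not overlap ND_C (log2 fold change -0.50, SE 0.18, edgeR adjusted p = 0.149), and Hsd11b2 in D_B12 did not overlap ND_B12 (-0.42, SE 0.11, edgeR adjusted p = 0.0762). Each was 1 of 8 members, beside 9.44% and 11.7% of genes without overlap. The exact permutation p of 0.0286 is the smallest that 4 against 4 allows, and it follows from the lack of overlap. Without D_C 1 and ND_B12 4, 3 members passed in untreated kidneys, beside 8.57% of genes. These were Agt (1.04, SE 0.19, edgeR adjusted p = 0.00616), Ace (-0.57, SE 0.11, edgeR adjusted p = 0.0102) and Enpep (0.35, SE 0.07, edgeR adjusted p = 0.0113). In B12-treated kidneys 3 members passed, beside 2.8% of genes, namely Ace (-0.83, SE 0.11, edgeR adjusted p = 0.00233), Mme (-0.40, SE 0.09, edgeR adjusted p = 0.0363) and Hsd11b2 (-0.47, SE 0.12, edgeR adjusted p = 0.0494). Agt in those kidneys had a log2 difference of 0.71 (SE 0.19, edgeR adjusted p = 0.0652). Without these 2 libraries, Agt, Ace and Enpep did not overlap in untreated kidneys (3 of 8 members, beside 19.8% of genes), nor did they, Mme and Hsd11b2 in B12-treated kidneys (5 of 8, beside 18.5%). The interaction term, which tests whether the effect of diabetes differed between treatments, passed for no member with all libraries (0.0% of genes, and 16.1% at an unadjusted p below 0.05) or without the 2 libraries (0.35% and 16.5%), so these differences between treatments were not established.

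Nr3c2 encodes the mineralocorticoid receptor. Its counts were 1936, 1846, 1774 and 1789.9 in ND_C and 1902, 2188, 2330.5 and 1974 in ND_B12. D_C libraries had 2409.8, 1804, 1936 and 2272, and D_B12 libraries 1742, 1597, 1889 and 1917. ND_B12 and D_C tended to hold the higher values, but each overlapped the groups it was compared with. The log2 fold change in diabetes averaged over treatments was -0.02 (SE 0.06, edgeR adjusted p = 0.914). It was 0.20 (SE 0.09) in untreated and -0.24 (SE 0.09) in B12-treated kidneys, an interaction of -0.43 (SE 0.13, edgeR adjusted p = 0.129).

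Hsd11b2, the enzyme that shields the receptor from glucocorticoids, had counts of 6715, 7288, 7468 and 9218 in ND_C and of 8530.1, 8629, 8622 and 7344 in ND_B12. In D_C they were 8224, 7028, 10232 and 7976, and in D_B12 5718, 6509, 6006 and 6593. The 4 D_B12 libraries were the 4 lowest of all 16, and the 2 doubted libraries were not extreme among all 16. D_B12 held 6206.5 ± 416 and D_C 8365 ± 1347 (SD, n = 4 each). The log2 difference was -0.43 (SE 0.11, edgeR adjusted p = 0.114). The interaction was -0.54 (SE 0.16, edgeR adjusted p = 0.113), and without D_C 1 and ND_B12 4 the 2 values were -0.43 (edgeR adjusted p = 0.0888) and -0.60 (edgeR adjusted p = 0.108). DESeq2 called both, at adjusted p = 0.0127 and 0.0292, and also the interaction of Nr3c2 at 0.0495, but it called 3.78% of genes for B12 in diabetic kidneys and 4.62% for the interaction, where edgeR called 0.0% of genes in each.

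**Figure D5:**
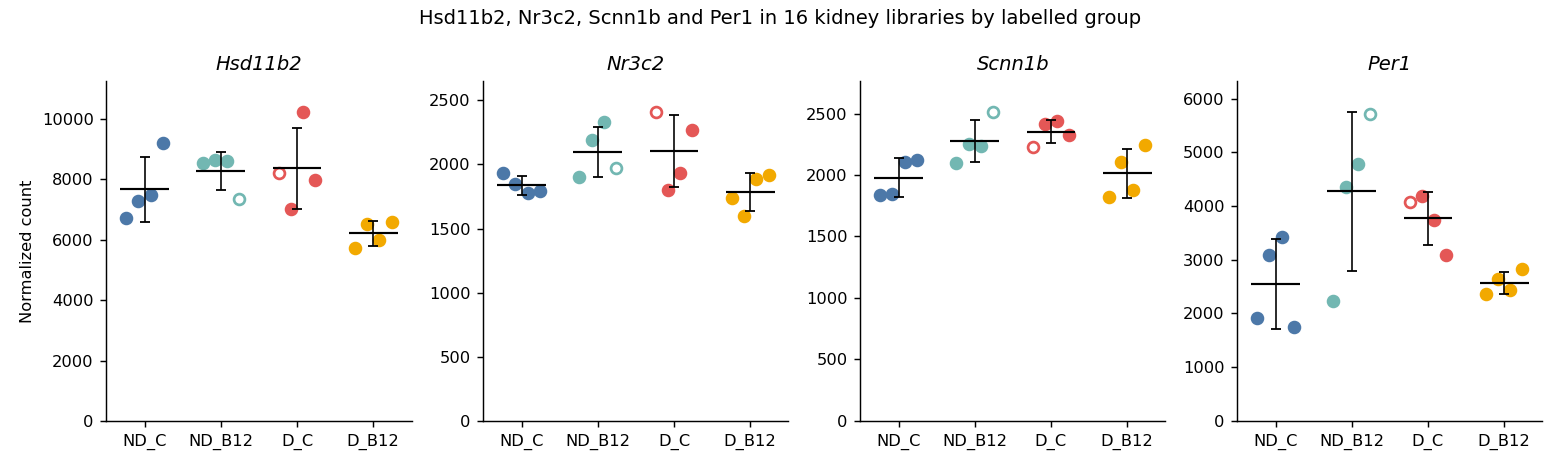
Normalized counts (axes from 0) of Hsd11b2, Nr3c2, Scnn1b and Per1 in each library by labelled group, with the group mean ± SD in black and open circles for D_C 1 and ND_B12 4. All 4 genes have a lower mean in D_B12 than in D_C, and the D_B12 points of Hsd11b2 lie below every other library.

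The effect of B12 was compared next. No member passed in non-diabetic or in diabetic kidneys, beside 0.0% of genes in each, although 7.62% and 13.6% of genes had an unadjusted p below 0.05. Without the 2 doubted libraries no member passed either, beside 0.0% (5.21% unadjusted) and 0.87% (17.2% unadjusted) of genes. In non-diabetic kidneys the log2 fold changes of the members ran from -0.10 (Ace) to 0.26 (Agt), and without ND_B12 4 and D_C 1 that of Agt was -0.04 and that of Ace 0.09. No member was free of overlap there, beside 4.81% of genes with all libraries and 6.87% without the 2. In diabetic kidneys 7 of 8 members were lower in D_B12 by the labels, with a median of -0.21 beside -0.00 over all genes. Unadjusted p-values were below 0.05 for 3 of them, Hsd11b2, Nr3c2 (-0.24, SE 0.09, edgeR adjusted p = 0.264) and Mme (-0.28, SE 0.11, edgeR adjusted p = 0.28). Of the 8 members only Hsd11b2 did not overlap between D_C and D_B12, beside 6.58% of genes, and likewise without the 2 doubted libraries, beside 13.7%. Ace was -0.25 (SE 0.18, edgeR adjusted p = 0.594) and Ren1 -0.17 (SE 0.36, edgeR adjusted p = 0.886). DESeq2 called no member in non-diabetic kidneys (0.0236% of genes). Comparisons that share a group, such as those that use D_C, are not independent of each other.

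Other values moved with these differences, and their part in the results was not tested. The summed level of 6 proximal tubule markers (all 6 present) was 880468 ± 62682 in the 8 diabetic libraries, from 800962 to 1009240, and 1000440 ± 45077 in the non-diabetic ones, from 947571 to 1058900. This sum was lower in diabetic kidneys, and so was Ace, while Agt and Enpep were higher. Its markers did not all move alike. In the order ND_C, ND_B12, D_C and D_B12, Slc34a1 averaged 424528, 435701, 350388 and 376611, and Slc7a13 55409, 54940, 44026 and 37764. Lrp2 averaged 355126, 396759, 352311 and 331975, and Slc5a12 25222, 29650, 23436 and 24229.5. Slc5a2 averaged 25392, 26863, 22521 and 25573, and Slc22a6 85831, 85467, 79611 and 92490. The sum of 4 endothelial markers, from cells that also carry Ace, was 19755 ± 1934 in diabetic and 17954 ± 1871 in non-diabetic libraries. Sums of 4 markers each were, in diabetic against non-diabetic libraries, 24842 ± 8924 against 14601 ± 4074 for principal cells and 10648 ± 1516 against 8655 ± 1358 for smooth muscle and mesangium, the lineage of renin cells. The principal cell sum was mostly Aqp2. In the order ND_C, ND_B12, D_C and D_B12, Aqp2 averaged 5921, 8193, 19109 and 12374, and Aqp3 5682, 7160, 8602 and 7038. Fxyd4 averaged 860, 854, 1332 and 705, and Avpr2 344, 189, 300 and 225. For macrophages the sums of 4 markers were 3954 ± 604 against 4926 ± 714, and for B and plasma cells 457 ± 185 against 1659 ± 949, again diabetic against non-diabetic. The sum of 4 adipocyte markers ranged from 17.0 to 5194 in diabetic and from 23.9 to 6932 in non-diabetic libraries. Of 4 hepatocyte markers Alb ran from 757 to 3636, Apoa1 from 14.4 to 219, Serpina1a from 1755 to 2696 and Cyp2e1 from 65568 to 129727 over the 16 libraries. The adrenal genes Cyp11b1 and Cyp11b2 were at 0 in all 16 libraries, Cyp21a1 did not exceed 3.39 and Mc2r did not exceed 25.4, while Star ran from 286 to 544. For Hsd11b2, 3 thick limb markers summed to 180586 ± 13063 in D_B12 and 255457 ± 34657 in D_C, 4 principal cell markers to 20341 ± 6871 and 29343 ± 9197, and 3 intercalated cell markers to 8074 ± 188 and 9642 ± 1338. The 3 distal convoluted tubule markers went the other way, with 70606 ± 6559 in D_B12 and 63518 ± 6385 in D_C. Within the thick limb sum Umod and Slc12a1 were lower in D_B12, whereas Cldn16 averaged 397 in D_B12 and 386 in D_C. The clock genes moved as well. The mean log2 level of 6 clock repressors less that of 3 activators was -0.23 ± 0.38 in D_B12 and 1.69 ± 0.37 in D_C by the labels, a direction that would turn if those labels were exchanged. Dates in the library names were close to the groups, since no date held both D_C and D_B12 or both ND_C and D_C libraries, so within-date values could not be given for those pairs. The only date that held both diabetes labels, 21 days after the first, had D_C 1 as its diabetic library. Without D_C 1 and ND_B12 4, non-diabetic libraries were dated 0 to 21 days after the first date and diabetic ones 28 to 111 days. Date and diabetes were then fully separated, and the results without these libraries cannot tell them apart. With all libraries and the date as a covariate, Ace in diabetes averaged over treatments was -0.41 (edgeR adjusted p = 0.624), Agt had an adjusted p of 0.758, and the date and diabetes could hardly be told apart.

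Genes around the members were counted from 3 lists. Of 19 other renin-angiotensin genes, 14 passed the filter. Agtr1b, Agtr2, Cma1 and Cpa3 had at most 17.4 normalized counts in any library and Mrgprd had none. None was called in diabetes with all libraries, 9 were higher and 5 lower, and the median log2 fold change was 0.03. Without the 2 doubted libraries 2 were called higher and 0 lower, or 2 of 14 beside 10.2% of all genes. Anpep, aminopeptidase N, was one of them, with 0.35 (SE 0.06, edgeR adjusted p = 0.00345), after 0.23 (SE 0.10, edgeR adjusted p = 0.206) with all libraries. With all libraries Prcp, which cuts the last residue of angiotensin II, had -0.21 (SE 0.07, edgeR adjusted p = 0.0992), and Klk1, tissue kallikrein, -0.29 (SE 0.12, edgeR adjusted p = 0.206). For B12 in diabetic kidneys Lnpep, a receptor-like aminopeptidase for angiotensin IV, had -0.10 (SE 0.06, edgeR adjusted p = 0.507).

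Of 16 genes of renin cells and renin control, all passed the filter and 1 was called in diabetes with all libraries, beside 3.02% of all genes. This was Casr, the calcium-sensing receptor, whose activation lowers renin release. It fell by 0.45 on the log2 scale (SE 0.11, edgeR adjusted p = 0.0382), from 6617 ± 648 in ND_C and 6529.9 ± 1414 in ND_B12 to 5226 ± 1095 (D_C) and 4452 ± 527 (D_B12), as mean ± SD of 4 libraries. Casr is also a thick limb gene, and the summed thick limb markers were 218022 ± 46792 in diabetic and 248956 ± 32406 in non-diabetic libraries. Without the 2 doubted libraries 2 genes were called higher and 2 lower, beside 10.2% of all genes. Casr then had -0.59 (SE 0.07, edgeR adjusted p = 0.000378), Adrb1, the beta-1 adrenergic receptor that drives renin release, -0.45 (SE 0.13, edgeR adjusted p = 0.0349), and Npr1, the natriuretic peptide receptor, 0.25 (SE 0.07, edgeR adjusted p = 0.0493). Ptgs2, the cyclooxygenase of the macula densa, was low in all groups (12.1 to 98.7 normalized counts) and had 1.01 (SE 0.35, edgeR adjusted p = 0.125) with all libraries. For B12 in diabetic kidneys 4 were higher and 12 lower with none called, and Rbpj, a Notch transcription factor of renin cells, had -0.21 (SE 0.08, edgeR adjusted p = 0.23).

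Of 19 mineralocorticoid targets and partners, all passed the filter and none was called in any of the 6 comparisons with all libraries. Nr3c1, the glucocorticoid receptor, came closest in the B12-treated kidneys, with -0.32 (SE 0.07, edgeR adjusted p = 0.0525), and without the 2 doubted libraries it had -0.34 (SE 0.07, edgeR adjusted p = 0.0193). Slc12a3, the thiazide-sensitive sodium chloride cotransporter, had -0.33 (SE 0.09, edgeR adjusted p = 0.0747) in untreated kidneys, and -0.41 (SE 0.09, edgeR adjusted p = 0.0142) without the 2 libraries. Scnn1b, the beta subunit of the epithelial sodium channel, averaged 1979.8 ± 157 (ND_C), 2276 ± 173 (ND_B12), 2353 ± 95.7 (D_C) and 2013 ± 198 (D_B12), with D_C and ND_B12 the 2 highest groups as for Nr3c2, and its interaction term was -0.43 (SE 0.11, edgeR adjusted p = 0.0902). Per1, a clock gene that aldosterone induces, had the widest interaction of those named, -1.31 (SE 0.34, edgeR adjusted p = 0.0933). Over the list the interaction was below 0 for 13 of 19 genes with a median of -0.22, beside -0.00 over all genes, and for all 8 members with a median of -0.23. For B12 in diabetic kidneys 13 of 19 were lower with a median of -0.12 and none was called.

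The deposited transcript table split the members into 1 to 8 models each, whose sum equalled the gene count. Ren1, Hsd11b2, Agtr1a and Enpep were made almost wholly of 1 model, whose lowest share in any library was 97.0%. For Ace, the canonical model Ace-201 took 87.1% ± 1.5 (SD, n = 16) and Ace-203, which has 20 exons against 25, took 12.9% ± 1.5. The Ace-201 share stood at 87.5% ± 0.8 for ND_C and 86.0% ± 1.8 for ND_B12 (n = 4). It stood at 88.2% ± 1.5 for D_C and 86.5% ± 1.0 for D_B12. Single libraries of all groups ran from 84.5% to 90.0%, and whether the share changed with the lower Ace count was not tested. Agt-202 took 76.8% ± 6.5 of Agt, Mme-205 87.3% ± 2.1 of Mme and Nr3c2-203 79.2% ± 11.6 of Nr3c2. These shares are estimates from 50-base reads, and no test was run on them.

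The genes most like each member were found among 15361 genes with a mean of at least 100 normalized counts, by Pearson's r of log2 CPM after the mean of each labelled group was subtracted. This describes 16 libraries that share their processing, and the 2 doubted libraries weigh on it. Agt was most like Rundc3a (r = 0.987, and 0.967 over 14 libraries without D_C 1 and ND_B12 4) and Rragd (0.981 and 0.944). Enpep was most like Decr1 (0.964 and 0.924) and Pklr (0.962 and 0.902). Ace was most like Slc22a30 (0.946 and 0.863) and H3c14 (0.929 and 0.768), whose r fell most without those libraries. By ranks, Ace and H3c14 had a Spearman's rho of 0.612 over 16 libraries, the lowest of the pairs given here. Mme was most like Mex3b (0.936 and 0.939) and Nsg2 (0.916 and 0.872), and Hsd11b2 like Ahcy (0.904 and 0.941) and Armc5 (0.896 and 0.886). Agtr1a was most like Msto1 (0.895 and 0.873) and Cyp2s1 (0.895 and 0.886), and Nr3c2 like Tlr9 (0.884 and 0.842) and Dcp1b (0.883 and 0.841). Ren1 was most like Wdr33 (0.821 and 0.828) and Arid3a (0.814 and 0.837), the lowest values over 16 libraries.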

How the data were processed

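Kidney total RNA of 16 libraries was sequenced by the authors as 50-base read pairs, aligned with STAR to GRCm39 (GENCODE vM35) and assembled with StringTie. The deposited gene and transcript tables hold estimated counts (expected counts) made with prepDE. Strand was assigned from intron motifs at alignment, and whether counting used strand is not stated. All 16 columns were matched to libraries by the number in the library name. Counts were rounded and genes with at least 100 counts in all (25408 of 57186) were tested with the quasi-likelihood F-test of edgeR 4.0.16 (TMM factors, 1 coefficient for each group of the labels, 12 residual degrees of freedom). P-values were adjusted over all genes by Benjamini and Hochberg and called at 0.05. DESeq2 1.42.0 supplied size factors and an alternative. Depth is the total count above. Replicates are labelled biological replicates. Named were the 8 members, list genes that passed or had the 3 lowest p-values per list, and the 2 genes most like each member. Members and lists were chosen with earlier results of these data known. The other alternatives were upper-quartile normalization, both other filters, the label date, a replicate block, the compared groups alone and each library left out. Scripts were tested on simulated data. Replicate numbers did not pair the libraries (24 correlations of deviations, -0.18 to 0.17, 3 over 0.1).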

Additional observations from a re-analysis of the deposited data

Results flagged for a closer look

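Gaps within groups of 4 libraries were screened in 32 groups (8 members in 4 groups), where chance alone gives about 1 in 20. Of the 5 gaps found, 4 were in 1 library, ND_B12 4, whose diabetes label is in doubt. There Agt was 5597 normalized counts against 2788 to 3129 in the other libraries of the group, Enpep 15578 against 11613 to 12020.4, Mme 11733 against 15465 to 15919 and Hsd11b2 7344 against 8530.1 to 8629. Ren1 was 1475 in ND_C 3 against 2354 to 2519 in the other ND_C libraries.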

How the results depend on the processing

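Of the member values recomputed under the alternatives, 1061 kept their direction and side of the threshold, 44 reversed, 21 newly passed and 10 no longer passed. The number of members called for diabetes averaged over treatments was 1, and it was 0 with the label date as a covariate, 4 without D_C 1 and ND_B12 4 together and 0 to 2 with each replicate left out. In untreated kidneys it was 0, then 3 without both libraries and 0 to 1 with each replicate left out. In B12-treated kidneys it was 0, then 2 by DESeq2, 1 in the compared groups alone, 3 without both libraries and 0 to 1 with each replicate left out. For B12 in diabetic kidneys DESeq2 called 1, and for the interaction it called 2 and the label date fit 1 (Hsd11b2, -0.72, edgeR adjusted p = 0.0353). The cause was not tested. The replicate block called 1 member in the averaged comparison and 0 in the other 5, and over all genes it called 478, 269, 25, 0, 0 and 147, against 767, 423, 209, 0, 0 and 0, in the order averaged, untreated, B12-treated, B12 in non-diabetic, B12 in diabetic and interaction.

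Over all genes in that order, DESeq2 called 1832, 1603, 1146, 6, 681 and 923, the label date fit 0, 2, 29, 0, 204 and 753, the fit without a filter 427, 63, 35, 0, 0 and 0, and the fit without both libraries 2531, 2127, 695, 0, 216 and 87. The compared groups alone gave 242 in untreated kidneys and 1 for B12 in diabetic kidneys. Upper-quartile normalization gave 18 in B12-treated kidneys, 8 higher and 10 lower, against 66 and 143. Each replicate left out gave 235 to 1700, 0 to 1552, 0 to 441, 0 to 2, 0 to 69 and 0 to 266.

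Reversed log2 fold changes with the label date were 0.024 for Mme and -0.069 for Hsd11b2 in untreated kidneys. With upper-quartile normalization, Mme was -0.014 for B12 in non-diabetic and Agtr1a 0.013 for B12 in diabetic kidneys. Without both libraries, Agt was -0.042 and Ace 0.088 for B12 in non-diabetic kidneys, and Enpep -0.039 for B12 in diabetic kidneys. With each replicate left out, signs also changed within these ranges. For B12 in non-diabetic kidneys Ren1 ran from -0.60 to 0.12, Agt from -0.039 to 0.36, Ace from -0.30 to 0.091 and Mme from -0.023 to 0.11. For B12 in diabetic kidneys Ren1 ran from -0.41 to 0.035, Agt from -0.36 to 0.18, Agtr1a from -0.056 to 0.063 and Enpep from -0.026 to 0.16. For diabetes in untreated kidneys Ren1 ran from -0.27 to 0.0088, Agtr1a from -0.11 to 0.011 and Mme from -0.097 to 0.069. Ren1 ran from -0.42 to 0.34 in B12-treated kidneys and from -0.26 to 0.13 averaged, where Nr3c2 ran from -0.054 to 0.019. For the interaction Ren1 ran from -0.33 to 0.43 and Ace from -0.34 to 0.057. With 4 libraries a group, small differences of Ren1 could not be resolved.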
